A study of Mus musculus with 6 samples.

Results

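The genes described here encode 8 receptor chains through which blood-forming cells sense cytokines: Epor, Csf3r, Csf2ra, Csf2rb, Csf2rb2, Il3ra, Il6ra and Il6st. They were taken by name from the 45706 genes counted, as type I cytokine receptors of the erythroid and myeloid lineages and of the interleukin 6 family. That rule uses no measured value, but it was set with earlier results of these data known. RNA-seq was done on LSK cells (lineage-negative, Sca-1+ and Kit+), the bone marrow compartment that holds hematopoietic stem cells and early progenitors, from 3 Setd1b FD/FD; RC/+ mice (cKO, homozygous for the conditional allele) and 3 Setd1b FD/+; RC/+ mice (Ctrl, heterozygous). Setd1b encodes a histone H3 lysine 4 methyltransferase. All 6 mice were C57BL/6 males carrying Rosa26-Cre-ERT2, which acts in almost all tissues and not in blood cells alone, and all received 4.5 mg tamoxifen per day by gavage on 4 days and, after a pause of 3 days, on 2 more. This schedule is that of the labels, and the number of doses in the study's methods is smaller. Ctrl mice therefore also carried Cre, had the drug and could recombine 1 Setd1b allele. By the study, Ctrl and cKO mice were littermates, and the labels do not say which share a litter. Marrow was taken 3 days after the last dose, from mice aged 16 weeks apart from cKO 3 at 17 weeks, and each library came from 1 mouse.

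Type I cytokine receptors have no kinase domain of their own. Binding of the ligand brings receptor chains together, JAK kinases bound to their tails become active, and STAT factors are phosphorylated and enter the nucleus, where they switch on genes that include inhibitors of the same pathway. Epor and Csf3r work as pairs of a single chain and bind erythropoietin and G-CSF, the cytokines of red cell and neutrophil production. The receptors for GM-CSF, interleukin 3 and interleukin 6 join a chain that binds 1 ligand (Csf2ra, Il3ra, Il6ra) to a signalling chain that several receptors share (Csf2rb, the common beta chain, and Il6st, also called gp130). Mice have a second beta chain gene, Csf2rb2, whose product serves interleukin 3 only.

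Csf2rb and Csf2rb2 lie next to each other in opposite orientation on chromosome 15 and are near-copies, which matters for counting 75-base reads. Csf2rb2 (ENSMUSG00000071714) spans chr15:78282517-78305603 on the minus strand and Csf2rb (ENSMUSG00000071713) chr15:78325990-78351000 on the plus strand (mm10). Over 2628 aligned coding bases, 2503 were identical (95.2%), with a longest identical run of 242 bases. The first 75 coding bases are shown because they differ as much as the median 75-base window does, at 2 positions, given in capitals. In Csf2rb they are in exon 3 (chr15:78335207-78335281) and in Csf2rb2 in exon 2 (chr15:78298155-78298229).
Csf2rb: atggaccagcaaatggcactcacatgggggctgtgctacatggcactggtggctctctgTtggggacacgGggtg
Csf2rb2: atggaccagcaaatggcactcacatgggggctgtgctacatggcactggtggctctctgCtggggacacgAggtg
The window that differs most is shown for contrast, with its 14 differing bases in capitals. It is in exon 5 of Csf2rb (chr15:78338905-78338979) and exon 4 of Csf2rb2 (chr15:78294352-78294426).
Csf2rb: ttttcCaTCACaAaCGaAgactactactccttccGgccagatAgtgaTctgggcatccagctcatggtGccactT
Csf2rb2: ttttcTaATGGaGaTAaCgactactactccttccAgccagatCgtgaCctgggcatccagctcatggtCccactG
A read from the second pair can be told apart easily, whereas 413 of the 2258 aligned windows (18.3%) were identical and a read from them fits both genes. Over all annotated transcripts, 518 of the 4872 different 75-base stretches of Csf2rb2 (10.6%) also occur in Csf2rb, where they make up 7.15% of 7243. For Csf3r 3.13% and for Il6ra 1.97% of stretches occur in another gene, and for Epor, Csf2ra, Il3ra and Il6st 0%. By the study's methods only reads with a unique alignment were counted, so reads from identical windows count for neither gene, and the counts of Csf2rb and Csf2rb2 rest on the stretches that differ. Whether reads with few differing bases were placed on the wrong copy was not tested.

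The libraries held 13003573 to 21277519 counted reads (Ctrl 13003573 to 21277519, cKO 14260925 to 15265730). All 8 receptor genes passed the filter on low counts, as did 15184 genes in all. Total Setd1b counts went against the labels: the libraries labelled cKO had 292 ± 21.1 CPM (counts per 1000000 reads, SD, n = 3) and Ctrl had 213 ± 16.2, or 0.46 higher on the log2 scale (SE 0.073, adjusted p = 0.00146 in the edgeR quasi-likelihood test). A gene total includes transcripts that lack the deleted exon, so that loss of the exon cannot be read from it. In other mice, weeks after induction, the study found complete recombination by PCR in sorted marrow populations. Its qRT-PCR, with a primer in the deleted exon, found Setd1b mRNA lost in cKO multipotential progenitors. That assay reads only mRNA that holds this exon, unlike the gene total given here. Kit (395 to 514 CPM in Ctrl and 416 to 466 in cKO), Ly6a, which encodes Sca-1 (36.5 to 56.3 and 35.8 to 39.4), and Cd34 (425 to 436 and 405 to 451) were present in all 6 libraries. Library numbers in the table fall into 2 series, with Ctrl 1, cKO 1 and cKO 2 in the first and Ctrl 2, Ctrl 3 and cKO 3 in the second. This split is uneven, so a difference between the series enters in part the comparison of cKO with Ctrl. The main test does not adjust for it.

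Of the 8 receptor genes, at an adjusted p under 0.05, the libraries labelled cKO were higher for 1 (Csf2rb2) and lower for 1 (Csf3r), against a background of 3.88% of all tested genes called higher and 3.79% called lower. Their median log2 fold change was 0.008, beside a median of 0.000229 over all tested genes. Unadjusted p was under 0.05 for 4 of the 8 (Csf2rb2, Csf3r, Csf2rb and Epor), beside 3470 of 15184 genes. The Ctrl and cKO values did not overlap for Csf2rb2 and Csf3r, which was so for 27.3% of all tested genes. The sum over the 8 genes was 387 to 424 CPM in Ctrl and 403 to 441 CPM in cKO.

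**Figure D1:**
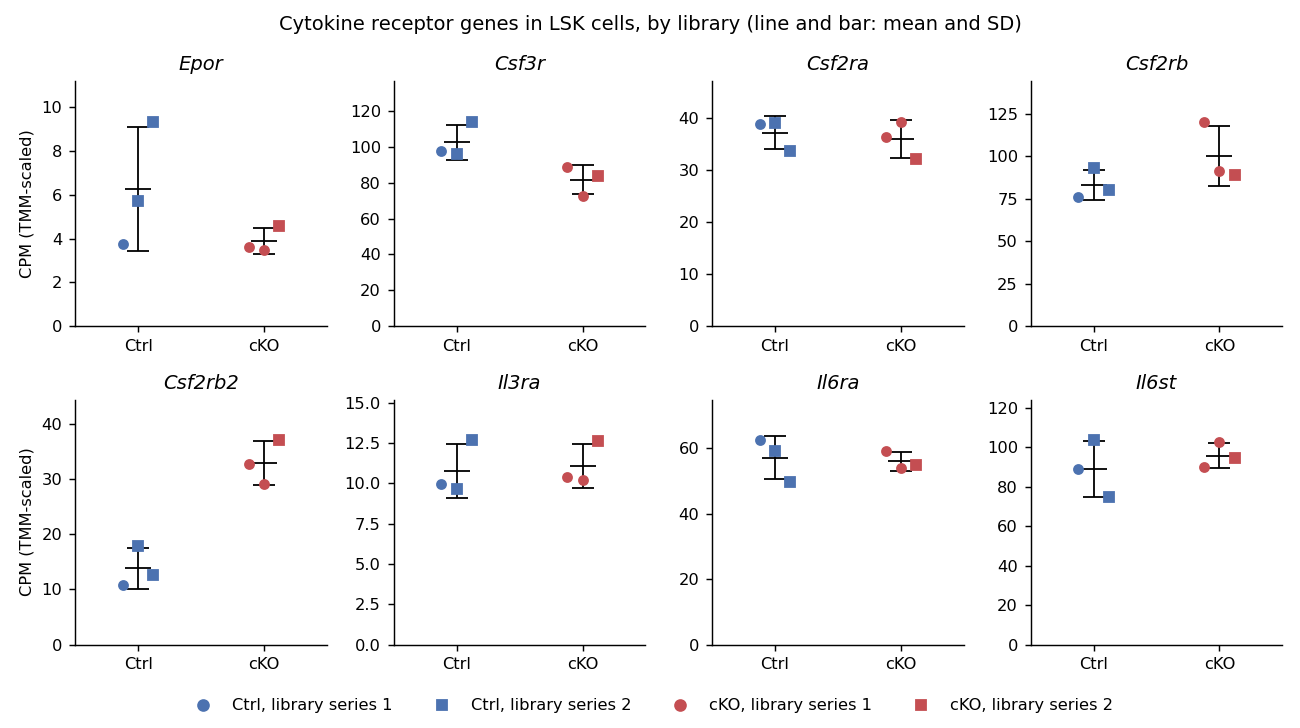
Level of each receptor gene in CPM (TMM-scaled counts per 1000000 reads, linear axis from 0) in each of 3 Ctrl and 3 cKO libraries, with circles and squares for the first and second library series and the line and bar for the mean and SD. All cKO points of Csf2rb2 lie above 29 CPM and all Ctrl points below 18, the Csf3r groups do not overlap, and for the other 6 genes the groups overlap.

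Csf2rb2, the beta chain gene of the interleukin 3 receptor, showed the greatest change of the 8. It measured 10.9 CPM in Ctrl 1, 17.9 in Ctrl 2 and 12.7 in Ctrl 3, against 32.8 in cKO 1, 29.1 in cKO 2 and 37.0 in cKO 3. The lowest cKO library stood above the highest Ctrl library. The means were 13.8 ± 3.67 and 33.0 ± 3.97 CPM (SD, n = 3 each), a 2.36-fold difference (log2 1.24, SE 0.159, 95% interval 0.897 to 1.575, adjusted p = 0.000227). Among the 589 genes called higher, it ranked 81st by size of the change. Within the first library series the log2 difference was 1.5 and within the second 1.29. The values rest on 142 to 376 reads per Ctrl library and 458 to 528 per cKO library.

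Csf2rb, the common beta chain gene for GM-CSF, interleukin 3 and interleukin 5, measured 75.8, 93.1 and 80.0 CPM in Ctrl 1 to 3 and 120.1, 91.1 and 88.7 CPM in cKO 1 to 3. The groups overlap, and cKO 1 stands above the other 5 libraries. The log2 fold change was 0.27 (SE 0.108, 95% interval 0.036 to 0.495, adjusted p = 0.153), with 0.46 within the first library series and 0.04 within the second. Without cKO 1 it was 0.11 (adjusted p = 0.559). With the counts of Csf2rb and Csf2rb2 summed before the fit, which removes the choice between the copies for the reads that were counted, the log2 fold change of the sum was 0.45 (SE 0.0997, adjusted p = 0.0108).

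The share of Csf2rb2 among the reads of both beta chain genes does not depend on library size. It was 12.5% in Ctrl 1 (95% Wilson interval 10.7 to 14.6), 16.1% in Ctrl 2 (14.7 to 17.7) and 13.7% in Ctrl 3 (12 to 15.5). In the cKO libraries it was 21.4% (19.8 to 23.2), 24.2% (22.3 to 26.2) and 29.5% (27.4 to 31.6). No interval of a Ctrl library reached that of a cKO library, though such intervals cover counting error only. The means were 14.1% ± 1.85 and 25.0% ± 4.08 (SD, n = 3 each), with an exact two-sided permutation p of 0.1, the smallest that 3 against 3 libraries can give.

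**Figure D2:**
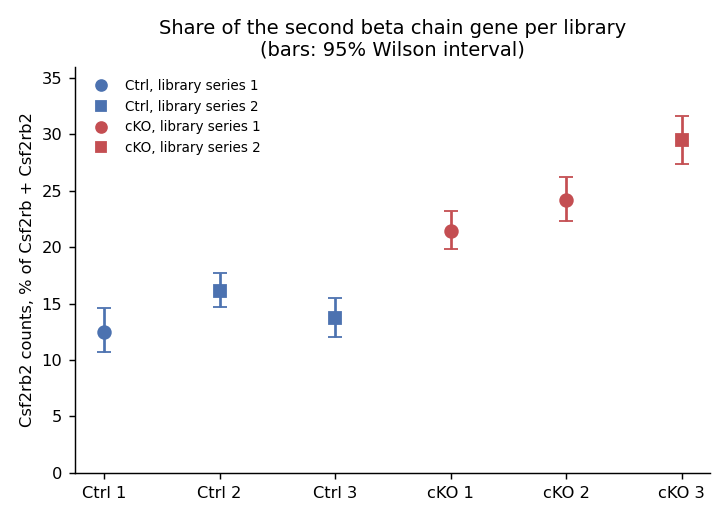
Reads counted for Csf2rb2 as a percentage of the reads counted for Csf2rb and Csf2rb2 together, 1 point per library on a linear axis from 0, with 95% Wilson intervals. The 3 Ctrl libraries lie between 12.5 and 16.1% and the 3 cKO libraries between 21.4 and 29.5%.

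The 250 bases before the Csf2rb2 start site in RefSeq (chr15:78305722-78305971, minus strand, GRCm38.p6) are shown because this gene had the greatest change. Capitals mark matches to 2 of the 5 short motifs searched on both strands.
Csf2rb2: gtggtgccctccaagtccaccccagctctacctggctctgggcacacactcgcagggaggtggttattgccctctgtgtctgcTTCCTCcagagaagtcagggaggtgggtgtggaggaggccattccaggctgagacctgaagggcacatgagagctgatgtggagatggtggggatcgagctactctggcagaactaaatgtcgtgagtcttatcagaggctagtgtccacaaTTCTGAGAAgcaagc
The first is the reverse complement of GAGGAA, the core bound by PU.1 and other ETS factors, 167 to 162 bases before the start. The second fits TTCNNNGAA, the palindrome bound by STAT factors, 15 to 7 bases before it, and the matches do not overlap. Of 32851 promoters of the same length, 23.3% hold GAGGAA and 7.02% TTCNNNGAA. The table had promoters of 7 of the 8 genes, without Csf2rb. Among these 7, GAGGAA occurred in 4 (Csf3r, Csf2ra, Csf2rb2 and Il6ra) and TTCNNNGAA in Csf2rb2 alone. AGATAA, a form of the GATA motif, was present in 2 (Epor and Il6ra, against 9.99% of all promoters). TGTGGT, a RUNX motif, was present in Epor (14%) and TTGCNNAA, a C/EBP motif, in Il3ra (9.56%). Other forms of these motifs were not searched, so a promoter without a match can still hold them. Such a match is a description of the letters and not evidence of binding.

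The alpha chain genes, whose products pair with these beta chains, did not pass the test. Csf2ra, which binds GM-CSF (ENSMUSG00000059326, chr19:61224402-61228418, minus strand), measured 33.5 to 39.0 CPM in Ctrl and 32.1 to 39.2 in cKO. The Ctrl and cKO ranges nearly coincide. The log2 fold change was -0.05 (SE 0.102, 95% interval -0.267 to 0.169, adjusted p = 0.827). Il3ra, which binds interleukin 3 (ENSMUSG00000068758, chr14:14346495-14355490, plus strand), measured 9.63 to 12.7 CPM in Ctrl and 10.2 to 12.6 in cKO, a log2 fold change of 0.04 (SE 0.164, 95% interval -0.306 to 0.394, adjusted p = 0.907). The intervals limit a change of Csf2ra more tightly than one of Il3ra.

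Csf3r, the receptor of G-CSF (ENSMUSG00000028859, chr4:126024550-126044440, plus strand), fell. It measured 97.8, 96.1 and 114.0 CPM in Ctrl 1 to 3 and 88.7, 72.9 and 83.5 CPM in cKO 1 to 3. All cKO libraries were below all Ctrl libraries, by a narrow margin between cKO 1 and Ctrl 2. The means were 103 ± 9.89 and 81.7 ± 8.08 CPM (SD, n = 3 each), 0.796-fold, with a log2 fold change of -0.33 (SE 0.0874, 95% interval -0.515 to -0.143, adjusted p = 0.0327). The log2 difference was -0.28 within the first library series and -0.33 within the second. The call was lost, with the direction kept, when the library series was a covariate (log2 -0.30, adjusted p = 0.059), without Ctrl 3 (-0.25, adjusted p = 0.146), without cKO 2 (-0.25, adjusted p = 0.174) and without cKO 3 (-0.35, adjusted p = 0.0642).

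Epor, the erythropoietin receptor (ENSMUSG00000006235, chr9:21958899-21963576, minus strand), measured 3.75, 5.72 and 9.34 CPM in Ctrl 1 to 3 and 3.62, 3.49 and 4.56 CPM in cKO 1 to 3. The Ctrl libraries spread widely, and Ctrl 1 lies within the cKO range. The means were 6.27 ± 2.84 and 3.89 ± 0.582 CPM (SD, n = 3 each). The log2 fold change was -0.69 (SE 0.294, 95% interval -1.32 to -0.07, adjusted p = 0.17) and was not past the threshold. Within the first library series the log2 difference was -0.07 and within the second -0.67. With the library series as a covariate the log2 fold change was -0.42 (adjusted p = 0.423). Leaving out Ctrl 1 brought it past the threshold (-0.94, adjusted p = 0.0435), and without Ctrl 3 it was -0.31 (adjusted p = 0.622).

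The interleukin 6 receptor genes differed by less than the spread between libraries. Il6ra, the chain that binds interleukin 6 (ENSMUSG00000027947, chr3:89864059-89913196, minus strand), measured 49.7 to 62.4 CPM in Ctrl and 53.9 to 59.2 in cKO, a log2 fold change of -0.03 (SE 0.092, 95% interval -0.224 to 0.168, adjusted p = 0.896). Il6st, the signalling chain that the receptors of interleukin 6, interleukin 11, LIF and oncostatin M share (ENSMUSG00000021756, chr13:112464070-112510086, plus strand), measured 74.7 to 103.5 CPM in Ctrl and 89.9 to 102.7 in cKO, a log2 fold change of 0.10 (SE 0.0994, 95% interval -0.109 to 0.315, adjusted p = 0.593). In both genes the cKO values lay inside the Ctrl range.

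**Figure D3:**
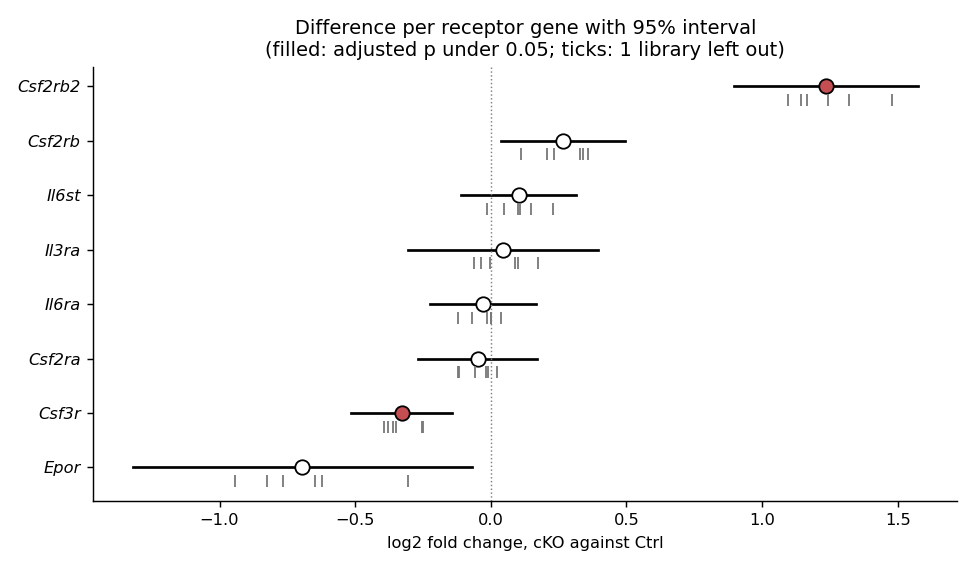
Log2 fold change of cKO against Ctrl for each receptor gene (points; filled where the adjusted p is under 0.05) with its 95% interval (line), and below it the values with 1 library left out (ticks). Csf2rb2 stands at 1.24 with an interval from 0.897 to 1.575, Csf3r at -0.33, and Epor has a wide interval from -1.32 to -0.07.

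Marker genes of blood lineages differed between the same libraries, and their values stand here beside the receptors of those lineages. The paper states that many such genes are already expressed at a low level in stem and progenitor cells. By the study, the make-up of the LSK compartment at this time was largely like that of controls (data not shown). Its qRT-PCR on sorted cells found Klf1 lower in long-term stem cells, Mpo in multipotential progenitors and Ighm in lymphoid-primed progenitors. That assay covered only a few representative mouse pairs, and its error bars came from technical replicates. In the bulk RNA used here, fewer cells of a type and less RNA per cell cannot be told apart. Of 11 granulocyte and monocyte progenitor markers, none of them at 0, 9 were lower in cKO, with a summed level of 3122 to 3728 CPM in Ctrl and 627 to 940 CPM in cKO. The 4 with the smallest adjusted p were Mpo (log2 -2.89), Elane (-2.37), Ctsg (-1.27) and Ms4a3 (-1.69), which encode granule proteases and enzymes of the early granulocyte line and a membrane protein of its progenitors. The log2 fold change of Csf3r, -0.33, was smaller in size than each of these 4, which were picked by adjusted p. In the same list Gfi1 changed less (-0.13, adjusted p = 0.249), and the list median was -0.968. Of 14 erythroid markers 9 were tested, 6 were lower and 1 (Epb42) was higher, with a sum of 281 to 310 CPM in Ctrl and 122 to 147 CPM in cKO. Car1 (-5.72), Ermap (-3.01), Klf1 (-2.07) and Rhag (-2.94) led them, whereas the globin gene Hba-a2 and the anion exchanger gene Slc4a1 had no more than 3 counts in any library. Of 8 tested mast cell, basophil and eosinophil markers, cells that express both beta chains, 4 were lower (Ms4a2, Prss34, Prg2 and Cpa3), with a sum of 257 to 308 CPM in Ctrl and 192 to 245 CPM in cKO. Gata2 made up most of this sum (means 194 CPM in Ctrl and 174 CPM in cKO) and was not called (log2 -0.15, adjusted p = 0.422). Mcpt8, Fcer1a and Hdc were not called either.

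For the other lists, 4 of 9 tested lymphoid markers were lower (Dntt, Ighm, Igkc and Il7r), with a sum of 480 to 1173 CPM in Ctrl and 112 to 186 CPM in cKO and with Cd3e, Cd8a and Ms4a1 at 3 counts or fewer. Of 9 tested macrophage markers 3 were lower (Cx3cr1, Vcam1 and Cd163), with a sum of 22.6 to 25.9 CPM in Ctrl and 11.7 to 13.9 CPM in cKO. Of 4 tested markers of mature neutrophils, in which Csf3r is abundant, S100a8 and S100a9 were lower and Itgam higher. The sum of the list was 43.7 to 55.3 CPM in Ctrl and 49.9 to 66.7 CPM in cKO. Most of it was Itgam (means 37.7 CPM in Ctrl and 50.7 CPM in cKO). S100a8 had means of 2.03 and 0.504 CPM and S100a9 of 1.43 and 0.308 CPM. Camp, Mmp9 and Ly6g were at 3 counts or fewer. Of 7 tested megakaryocyte markers 1 was higher (Itgb3) and 1 lower (Pf4), with a sum of 166 to 203 CPM in Ctrl and 174 to 245 CPM in cKO. Among 11 markers of the LSK gate and stem cells, Procr (log2 1.43) and Mecom (0.45) were higher and none was called lower. Their sum was 1836 to 2038 CPM in Ctrl and 1868 to 1992 CPM in cKO. Flt3 (-0.31, adjusted p = 0.12) and Cd48 (-0.49, adjusted p = 0.0739) were lower at an unadjusted p under 0.05 only. The part of these cell types in the receptor values was not tested.

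Per exon length, in RPKM (TMM-scaled reads per kilobase of exon and 1000000 reads, a level), the receptor genes of Ctrl fell into a high and a low set. Csf3r led with 28.4 ± 2.74, followed by Csf2ra with 20.1 ± 1.70 and Csf2rb with 17.4 ± 1.89 (SD, n = 3 each). Il6st (8.02 ± 1.30), Il3ra (7.71 ± 1.2) and Il6ra (6.60 ± 0.765) followed, and Epor (3.43 ± 1.55) and Csf2rb2 (3.00 ± 0.795) were lowest. Library ranges of neighbours in this order were apart between Csf3r and Csf2ra, Csf2rb and Il6st, and Il6ra and Epor, and overlapped for the other 4 pairs of neighbours. In cKO the order was Csf3r (22.6 ± 2.24), Csf2rb (21.0 ± 3.68), Csf2ra (19.4 ± 1.93), Il6st (8.63 ± 0.586), Il3ra (7.95 ± 0.961), Csf2rb2 (7.15 ± 0.861), Il6ra (6.48 ± 0.331) and Epor (2.13 ± 0.318). Only Csf2ra and Il6st, and Il6ra and Epor, were apart as neighbours there. Csf2rb2 thus stood at rank 8 of 8 in Ctrl and at rank 6 in cKO, where its range overlapped those of Il3ra and Il6ra, and Csf3r no longer stood apart from the next gene. These orders depend on the deposited length. In Ctrl, Il6st had a mean of 89.0 CPM over 11099 exon bases and Csf2rb 83.0 CPM over 4764. Reads from stretches that the beta chain genes share were not counted, and the lengths were not corrected for this.

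**Figure D4:**
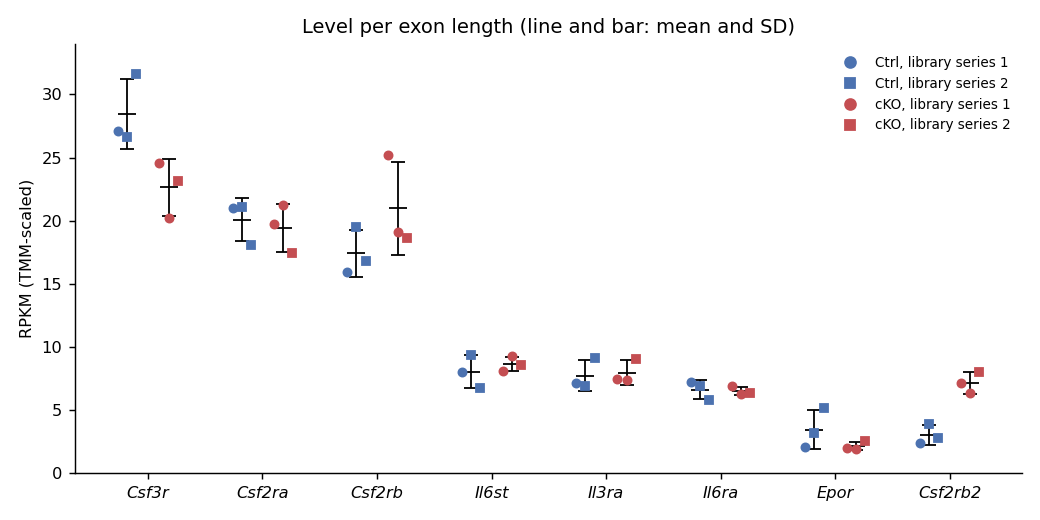
Level per exon length in RPKM (TMM-scaled, linear axis from 0) of the 8 receptor genes in each library, ordered by the Ctrl mean, with the mean and SD as line and bar. Csf3r, Csf2ra and Csf2rb lie above 15 RPKM in all libraries and the other 5 below 10, and Csf2rb2 moves from 3.00 in Ctrl to 7.15 in cKO.

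Ratios of reads within a library, here on the log2 scale, compare receptor chains without library scaling. Csf2rb2 against Csf2rb was -2.61 ± 0.217 in Ctrl and -1.59 ± 0.311 in cKO (SD, n = 3 each), 1.02 higher in cKO, and the groups did not overlap (exact two-sided permutation p = 0.1, the smallest possible). Csf2ra against Csf2rb was 0.31 lower in cKO, at -1.16 ± 0.168 and -1.47 ± 0.253 (p = 0.3, exact permutation test, n = 3 each). Il3ra against Csf2rb (difference -0.21, exact permutation p = 0.5), Il6ra against Il6st (-0.14, p = 0.4), Csf3r against Il6st (-0.45, p = 0.2) and Epor against Csf3r (-0.27, p = 0.5) overlapped between the groups. Adjusted over the 6 ratios, p was 0.5 for each. No design of 3 against 3 libraries can pass 0.05 in this test.

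The further genes of the pathway were 98, of which 83 were tested. Of these, 8 were higher and 3 lower (13.3%, against 7.67% of all tested genes called in either direction), with a median log2 fold change of 0.079. Among 14 tested other type I receptors of 21, Il7r was lower and Il4ra higher. Il7r, the interleukin 7 receptor of lymphoid progenitors, had 7.40 ± 3.44 CPM in Ctrl and 2.76 ± 0.101 CPM in cKO (SD, n = 3 each), with a log2 difference of -1.42 (adjusted p = 0.0138). It is also one of the lymphoid markers that were lower, and its call was lost without Ctrl 2 (adjusted p = 0.0601) and without cKO 2 (0.064). Il4ra, the chain that binds interleukin 4, was at a log2 fold change of 0.26 (adjusted p = 0.049), and its call was lost under 7 of 12 alternatives, among them the library series as a covariate (adjusted p = 0.0675), DESeq2 size factors (0.0518) and leaving out any 1 library other than Ctrl 2 (up to 0.185). Of 7 tested type II receptors, Ifngr1, the chain that binds interferon gamma, was lower, with 98.0 ± 6.13 CPM in Ctrl and 75.3 ± 1.76 in cKO (log2 -0.38, adjusted p = 0.00417).

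Downstream of the receptors, Stat3, Stat4 and Stat2 were higher among the 7 STAT genes, and none was lower. Stat3, the main STAT of Il6st and Csf3r, rose from 173 ± 7.92 to 234 ± 4.59 CPM (log2 0.44, adjusted p = 0.000553). Stat4, which interleukin 12 activates, rose from 35.5 ± 0.737 to 50.8 ± 0.795 CPM (log2 0.52, adjusted p = 0.00123), and Stat2, of the type I interferon response, was 0.33 higher on that scale (adjusted p = 0.0404). Stat5a and Stat5b, the STATs of the erythropoietin and beta chain receptors, measured 99.3 and 91.0 CPM and 129 and 135 CPM in Ctrl and cKO, with adjusted p of 0.324 and 0.648. Of the 4 JAK kinases, Jak3, which pairs with the common gamma chain, was higher (log2 0.30, adjusted p = 0.0219), and Jak2, the kinase of Epor and the beta chains, was at 0.20 (adjusted p = 0.0909). The call of Jak3 was lost without Ctrl 3, cKO 1 or cKO 3 (adjusted p up to 0.112) and that of Stat2 without Ctrl 2, Ctrl 3, cKO 2 or cKO 3 (up to 0.17) and with the library series as a covariate (log2 0.31, adjusted p = 0.0646). None of 10 signal adaptor genes was called in edgeR (0 also in DESeq2, adjusted p), with 2 at an unadjusted p under 0.05, and Irs2 had the smallest (log2 -0.45, adjusted p = 0.135).

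Of 18 inhibitor genes, Socs3, which blocks signalling from Il6st and Csf3r, was called higher and none lower. Socs3 went from 10.5 ± 5.74 to 21.1 ± 2.51 CPM (log2 0.97, adjusted p = 0.0497), and its call was lost under 6 of 12 alternatives, among them DESeq2 (adjusted p = 0.282) and leaving out Ctrl 3 or any 1 cKO library (up to 0.15). Among 18 STAT target genes, Pim2 and Mcl1 were higher and Myc lower. Pim2, a survival kinase, rose from 12 ± 2.87 to 23.4 ± 2.88 CPM (log2 0.95, adjusted p = 0.00205), and Mcl1, a survival factor, was 0.23 higher on that scale (adjusted p = 0.0491), a call lost with the library series as a covariate (adjusted p = 0.0535), with DESeq2 size factors (0.0527) and without any 1 library other than Ctrl 2 (up to 0.189). Myc, a growth regulator, fell from 491 ± 21.6 to 379 ± 13.4 CPM (log2 -0.37, adjusted p = 0.0017). Of the 13 ligand genes 6 were tested and none was called in edgeR (0 also in DESeq2, adjusted p), with 4 at an unadjusted p under 0.05 (Clcf1 0.59, adjusted p = 0.12). Epo, Csf3 and Il3, which encode the ligands of Epor, Csf3r and Il3ra, had 0 counts in all 6 libraries.

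**Figure D5:**
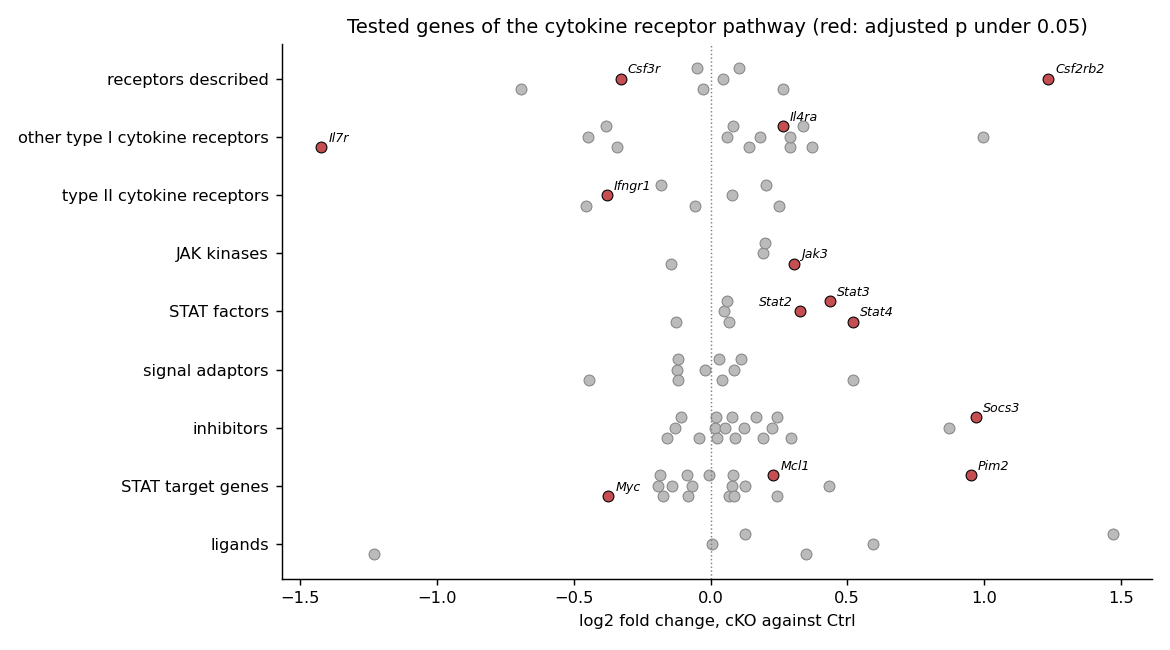
Log2 fold change of cKO against Ctrl (x axis) for each tested gene of the cytokine receptor pathway, 1 row per list with points offset vertically for legibility only, red and named where the adjusted p is under 0.05. Red points lie on the higher side for Csf2rb2 and 8 other genes and on the lower side for Csf3r, Il7r, Ifngr1 and Myc.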

How the data were processed

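LSK cells of 6 mice were amplified with a stranded total RNA kit and read as 75-base single reads. Per the labels and the study's methods, the authors aligned with GSNAP to mm10 and counted uniquely aligned reads per gene (Ensembl annotation) with featureCounts 1.5.0, strand setting 1 and minimum mapping quality 1. The deposited values are raw counts for 45706 genes with exon lengths; 98.8% of identifiers were named by GENCODE M21.

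Replicates were separate mice, numbered in accession order. Their counts differed by more than sampling noise in every pair of a group (chi-square per gene 4.47 to 25.1), so none was counted as a duplicate. The value was lowest for the pairs within a library series (4.47 for cKO 1 and cKO 2, 11.9 for Ctrl 2 and Ctrl 3). Pairs across the series had 18.3 to 25.1. Genes were filtered with filterByExpr defaults, scaled by TMM and tested by genotype alone with edgeR 4.0.16 (R 4.3.3, quasi-likelihood test, Benjamini-Hochberg over 15184 genes, threshold 0.05). Every adjusted p in the text comes from this test unless DESeq2 (1.42.0) is named. RPKM were computed here from TMM-scaled counts and the deposited exon length. Alternatives were DESeq2, its size factors in edgeR, removal of genes over 1% of counts, other filters, the library series as a covariate or alone, each library left out, both beta chain genes summed and a threshold of 0.01. Ratios used exact two-sided permutation tests. The fit was tested on simulated data.

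The 8 genes, the pathway and marker lists and the tests were chosen with earlier results of these data known. Named genes were the 8 receptors, Setd1b, up to 4 called genes per list by smallest adjusted p (the smallest p where none was called) and the 2 genes most correlated with each receptor. Kit, Ly6a, Cd34, Flt3, Cd48, Gfi1, Gata2, Mcpt8, Fcer1a, Hdc, Epb42, Stat5a, Stat5b and Jak2 were named after their values were seen. So were the ligand genes at 0 and the markers at 3 counts or fewer. Promoters came from RefSeq (GRCm38.p6) and transcripts from GENCODE M21. No exon-level counts were analysed here. Some items are not reported here.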

Additional observations from a re-analysis of the deposited data

How the results depend on the processing

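Of 110 tested values of the 8 receptors under other settings, without the sum of both beta chain genes, 97 kept direction and side of the threshold, those of Csf2rb2 in all 13 (1.10 to 1.48 on the log2 scale with 1 library left out, adjusted p at most 0.00322), and of 16 untested values within a library series 15 kept the direction. Csf3r lost its call at a threshold of 0.01 (-0.33) and with library series as a covariate (-0.30), and ranged from -0.39 to -0.25 with 1 library left out; Epor ranged from -0.94 to -0.31. Csf2rb passed the threshold with no filter on low counts (0.26, adjusted p = 0.0179) and when summed with Csf2rb2 (0.45, adjusted p = 0.0108, against 1.24 for Csf2rb2 alone), and ranged from 0.11 to 0.36. The sign turned for Csf2ra without cKO 3 (0.0215; range -0.12 to 0.0215), for Il3ra without Ctrl 1 (-0.0045), Ctrl 2 (-0.0363) and cKO 3 (-0.0619; range up to 0.18), for Il6ra without Ctrl 1 (0.0374; range from -0.12) and in the second library series alone (0.0135), and for Il6st without Ctrl 3 (-0.0131; range up to 0.23). Ratios turned for Il3ra against Csf2rb in the second series alone (0.15) and for Epor against Csf3r in the first alone (0.21). The cause was not tested.

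Receptors called higher were 2 with no filter. Those called lower were 0 with the series covariate and at 0.01, and 0 to 2 with 1 library left out (0 without Ctrl 3, cKO 2 or cKO 3, 2 without Ctrl 1). Pathway genes called higher were 13 with no filter, 3 at 0.01 and 3 to 9 with 1 library left out (3 without Ctrl 3 or cKO 3, 4 without cKO 2, 5 without cKO 1). Over all genes, 241 were higher and 272 lower at 0.01, 873 were lower with no filter, and with 1 library left out 296 to 531 were higher (325 without Ctrl 3, 390 without cKO 1, 296 without cKO 2, 345 without cKO 3) and 308 to 594 lower (340 without Ctrl 3, 308 without cKO 2). Leaving out a library leaves fewer samples. Of the named pathway genes, Ifngr1, Stat3, Stat4, Pim2 and Myc kept their call under all 12 settings, Il7r under 10, Jak3 under 9, Stat2 under 7, Socs3 under 6 and Il4ra and Mcl1 under 5.

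No paired analysis was possible because the labels give mouse identifiers and no litter or replicate number that ties a cKO mouse to a Ctrl mouse; the library series was fitted as a covariate. The standard errors were largest for Epor and Il3ra, the receptors with the lowest CPM, and 3 mice per group limit the precision of all values.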

Other observations

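The genes whose levels varied most like each receptor across the 6 libraries were found by Pearson's r of log2 CPM among 9522 tested genes with a mean of at least 10 CPM. They are a description over 6 points that share genotype and library series, with no test. For Csf2rb2 they were Crybg3 (r = 0.996) and Tmem176b (0.996), and for Csf2rb Arih1 (0.991) and Gyg (0.974). For Csf3r they were Gm6085 (0.996) and Bola3 (0.989), and for Epor Chaf1a (0.986) and Tysnd1 (0.983). The alpha chain genes were nearest to Mycbp (0.993) and Fbxw2 (0.983) for Csf2ra and to Sprtn (0.998) and Retreg3 (0.997) for Il3ra. Il6ra was nearest to Trmt44 (0.992) and Manea (0.973), and Il6st to Cds1 (0.988) and Dyrk2 (0.985). No gene was nearest to more than 1 receptor. With 6 points, the highest r among so many genes can lie near 1 for any gene. It was as high for Il3ra (0.998), which was not called, as for Csf2rb2 (0.996). Such values are not evidence of shared regulation.

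Genes annotated within the receptor genes drew few reads: the microRNA genes Mir7676-2 in Csf2rb and Mir7676-1 in Csf2rb2 had 0 counts in all libraries, and Gm42809, on the strand opposite to Il6ra, had 1 to 2.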
